A study of Homo sapiens with 21 samples.

Results

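U2AF1 clusters and CPSF1 clusters from fluorescent PAR-CLIP (fPAR-CLIP) were set side by side, to see where along introns and transcript ends each protein's RNA contacts lay. Every cluster of the 2 libraries was taken, 8003 for U2AF1 and 21383 for CPSF1, of 855812 clusters in 17 files from 21 samples. The study mapped the RNA sites of several binding proteins by crosslinking, immunoprecipitation and sequencing. In PAR-CLIP, cells take up 4-thiouridine, ultraviolet light joins the labelled RNA to bound protein, and a crosslinked base is read as a T-to-C change. In the fluorescent version the RNA is followed through a fluorescent adapter in place of a radiolabel. A cluster is a group of overlapping reads at 1 genomic place.

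Both libraries came from Flp-In T-REx 293 cells, a human embryonic kidney line, that carried a stably integrated FLAG-HA tagged transgene, and both used an anti-FLAG pulldown. U2AF1 cells received 250 uM 4-thiouridine for 2 h, and the library at 1.5 U/ml RNase A+T1 was used. CPSF1 cells received 100 uM for 8 to 12 h, and the library at 0.5 U/ul RNase I was used. The crosslinking dose was 0.3 J/cm2 for both. U2AF1 is named in the protocol among chromatin-associated proteins, for which washed nuclei and a sonicated chromatin pellet were used, and that lysis step names RNase I as well. The lysis step for CPSF1 is not singled out there. Protein, RNase, labelling and possibly extraction therefore differed together and cannot be told apart. There was 1 library for each, so no difference has a replicate check and no test was made. Intervals are 95% Wilson intervals for shares and Newcombe intervals for differences, and they cover counting error only.

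U2AF1 is the small subunit of the U2AF dimer, which marks the 3′ end of an intron for the U2 small nuclear ribonucleoprotein: the large subunit, U2AF2, holds the pyrimidine tract and U2AF1 contacts the AG dinucleotide. CPSF1, also called CPSF160, is the largest subunit of the cleavage and polyadenylation specificity factor and forms the platform on which its partners WDR33 and CPSF4 read the AAUAAA signal upstream of the cleavage site. The first complex defines where an intron ends and the second where a messenger RNA ends.

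The sequences below show what the most-read clusters of at most 30 nt at each protein's textbook site held. For U2AF1 they are the 4 genes with the most-read 3′ splice site clusters of at most 30 nt, written 5′ to 3′ on the transcript strand, with a TTNCAG or TTNTAG match in capitals. RPL5, a large-subunit ribosomal protein gene, had 33 reads at chr1:92840539-92840564 (hg38, plus strand). POLE, the catalytic subunit of a replicative DNA polymerase, had 32 reads at chr12:132661155-132661183 (minus strand). GOLT1B, a Golgi transport gene, had 29 reads at chr12:21508361-21508390 (plus strand). SYNCRIP, an hnRNP protein gene, had 28 reads at chr6:85637122-85637145 (minus strand) and no match to the motif.
RPL5: cctttgTTTCAGatggaggagatgta
POLE: cctttttttttttTTTCAGgtatgctgtg
GOLT1B: ttgtattttctttctcTTTTAGgttttatt
SYNCRIP: agatatttgtgggaaagatcccaa

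For CPSF1 they are the 4 genes with the most-read 3′ UTR clusters of at most 30 nt that held a poly(A) signal, AATAAA or ATTAAA in capitals. UBE2D3, a ubiquitin-conjugating enzyme, had 30 reads at chr4:102796131-102796157 (minus strand). MYL6, a myosin light chain, had 27 reads at chr12:56161550-56161579 (plus strand). CCT4, a chaperonin subunit, had 27 reads at chr2:61868432-61868458 (minus strand), and its cluster held the signal at 2 places. TXLNG, a taxilin, had 25 reads at chrX:16843190-16843219 (plus strand).
UBE2D3: AATAAAgtactgttttggtgtgggagt
MYL6: tcaccaAATAAActtgctctctgggccctc
CCT4: aaactAATAAAaactAATAAAagaagc
TXLNG: actggactgAATAAActctgttttgtccag

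The U2AF1 clusters held 95341 reads and the CPSF1 clusters 180426 reads. The U2AF1 total was recovered from the deposited crosslinked reads and fraction, because the deposited read totals of 34.1% of its clusters were those reads multiplied by whole numbers of up to 13. The median cluster held 6 reads in U2AF1 and 7 reads in CPSF1, and the smallest held 4 and 5 reads, so a gene without a cluster may still have had reads. The 100 most-read clusters held 35.1% of U2AF1 reads and 7.86% of CPSF1 reads. T-to-C reads made up 44.8% in U2AF1 and 92.7% in CPSF1. Of 6 marker genes of the cell line, 0 had a cluster in U2AF1 and 4 had one in CPSF1, and 0 of 8 markers of liver, erythroleukaemia and blood cells had a cluster in either library. In U2AF1, 1235 clusters shared their sequence with another cluster, against 0 in CPSF1.

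U2AF1 clusters lay at 3′ splice sites, in coding exons and outside the annotation more often than CPSF1 clusters did, and CPSF1 clusters lay more often in introns and 3′ UTRs. The noncoding transcript class held 17.0% of U2AF1 clusters and 4.27% of CPSF1 clusters, but it is not alike in the 2 layouts. In U2AF1 it also took clusters labelled only as exon, those of protein-coding genes included. SAT1, for example, had 71 of its 204 U2AF1 reads there and 0 of its 28 CPSF1 reads. A cluster was counted at a 3′ splice site where its deposited label spanned an intron and the exon after it. In U2AF1, a label with both an intron and an exon but no splice site tag was counted there too. By that rule 11.1% of U2AF1 clusters (10.4 to 11.8, 888 clusters) and 0.99% of CPSF1 clusters (0.87 to 1.13, 212 clusters) lay at 3′ splice sites, a difference of 10.1 percentage points (9.42 to 10.8). The 5′ splice site, the other end of the intron, held 0.90% of U2AF1 clusters and 0.52% of CPSF1 clusters. The deposited U2AF1 labels mark the 3′ splice site by a tag of its own only on the plus strand, in 464 of 464 tagged clusters. The other 424 were minus-strand clusters labelled both intron and exon without a splice site tag. Their labels do not say which comes first, so some may lie at a 5′ splice site. With tagged and untagged clusters counted, the share was 11.6% on the plus strand and 10.6% on the minus strand in U2AF1, against 0.88% and 1.11% in CPSF1. With the tag alone the difference was 4.81 points, and by reads the share was 7.12% in U2AF1 and 0.86% in CPSF1.

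Introns held 26.8% of U2AF1 clusters (25.8 to 27.8) and 69.2% of CPSF1 clusters (68.5 to 69.8), a difference of -42.4 points (-43.5 to -41.2). The 3′ UTR held 2.77% of U2AF1 clusters (2.44 to 3.16) and 10.0% of CPSF1 clusters (9.62 to 10.4), a difference of -7.24 points (-7.77 to -6.69). Coding sequence held 14.8% and 3.50%. The 5′ UTR held 0.97% and 1.03%, and the interval of that difference, -0.30 to 0.22 points, spans 0. Clusters outside the annotation made up 25.7% in U2AF1 and 10.5% in CPSF1, and by reads 38.2% and 14.1%. Among clusters in messenger RNA classes alone, the 3′ splice site held 19.4% in U2AF1 and 1.16% in CPSF1, introns 46.7% and 81.2%, and the 3′ UTR 4.84% and 11.8%. U2AF1 clusters labelled only as exon are outside these classes, also where the gene is protein-coding.

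**Figure D1:**
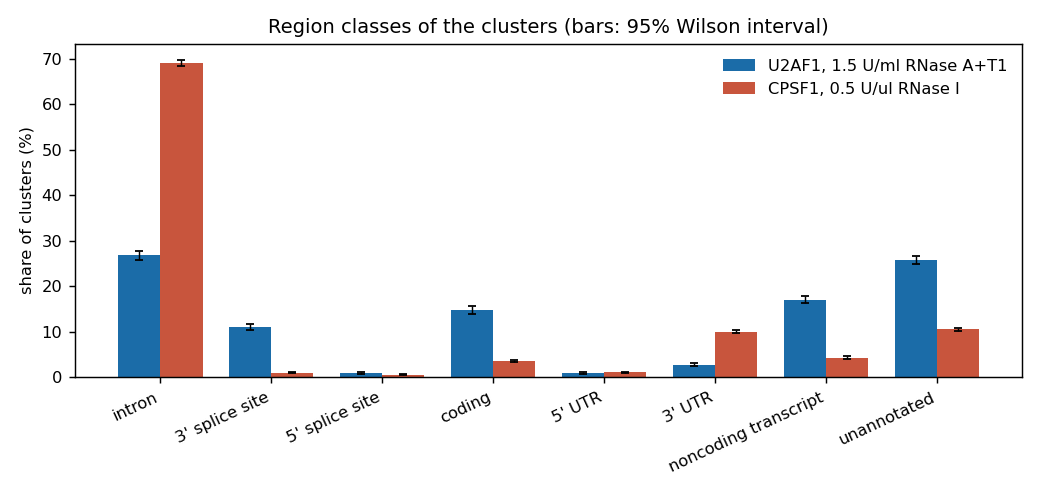
Share of clusters (percent, vertical axis) in each region class for the U2AF1 library and the CPSF1 library, with 95% Wilson intervals that cover counting error only. U2AF1 has 11.1% of clusters at 3′ splice sites against 0.99% in CPSF1, and 26.8% in introns against 69.2%.

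The other libraries place these shares. In U2AF1 at 15 U/ml of the same RNases the 3′ splice site held 6.38% of clusters, introns 16.1%, coding sequence 20.2% and the 3′ UTR 2.32%. Within U2AF1 the 3′ splice site share thus differed between the RNase doses, with 1 library at each dose. FUBP3 and KHSRP, both KH-domain proteins known to bind U-rich RNA, were profiled at the same RNase I dose as CPSF1 and in the same file layout. They had 0.28% and 0.48% of clusters at 3′ splice sites, 65.5% and 79.5% in introns, and 18.9% and 9.23% in 3′ UTRs. The CPSF1 shares in introns, 69.2%, and in 3′ UTRs, 10.0%, therefore lay between those of FUBP3 and KHSRP.

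The sequence of the clusters differed as well. Motifs were searched on the transcript strand of each cluster sequence, and a match is a description of the letters, not a mapped site. TTNCAG or TTNTAG, the letters that end many introns, occurred in 18.3% of U2AF1 clusters (17.5 to 19.2) and 7.21% of CPSF1 clusters (6.87 to 7.56). AATAAA or ATTAAA occurred in 1.37% of U2AF1 clusters (1.14 to 1.65, 110 clusters) and 19.6% of CPSF1 clusters (19.0 to 20.1, 4186 clusters). AATAAA alone, the canonical form, was in 0.87% and 14.7%, and the variant ATTAAA in 0.51% and 5.91%. T made up 33.7% of the bases in U2AF1 clusters and 32.1% in CPSF1 clusters, and A 21.0% and 25.5%.

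Against the other RNase I libraries, the poly(A) signal was more frequent in CPSF1. The splice-like motif of U2AF1 was above theirs, by less for KHSRP than for FUBP3. The poly(A) signal was in 3.92% of FUBP3 clusters and 4.65% of KHSRP clusters, against the 19.6% of CPSF1. The splice-like motif was in 12.2% of FUBP3 clusters and 16.0% of KHSRP clusters, against the 18.3% of U2AF1. In U2AF1 at 15 U/ml the motif was in 8.66% of clusters, below both FUBP3 and KHSRP. A run of 6 T was in 14.0% of U2AF1 clusters, 3.54% of CPSF1 clusters and 5.04% of U2AF1 clusters at 15 U/ml.

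**Figure D2:**
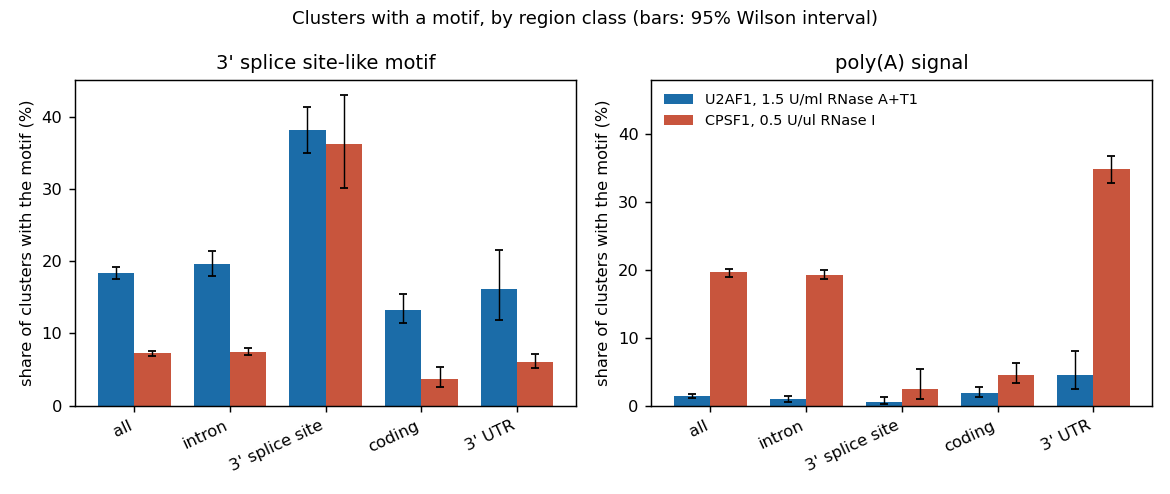
Share of clusters (percent, vertical axis) that hold a splice-like motif (left) or a poly(A) signal (right) in each region class, for U2AF1 and CPSF1, with 95% Wilson intervals. The splice-like motif is similar in the 3′ splice site class, 38.2% and 36.3%, and the poly(A) signal is higher in CPSF1 in introns (0.89% and 19.2%) and 3′ UTRs (4.50% and 34.8%).

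Within the 3′ splice site class the motif was about as frequent in both libraries, although that class was a small part of CPSF1. The motif was in 38.2% of the 888 U2AF1 clusters and 36.3% of the 212 CPSF1 clusters. Among those, the intron ended in CAG in 57.5% and 59.7% and in TAG in the rest. The base after the AG was G in 42.4% and 42.1%, A in 42.7% and 26.3%, T in 7.12% and 15.8%, and C in 7.72% and 15.8%. The place of the AG in the cluster differed. It ended at 50.0% of the cluster length in U2AF1, with medians of 15 nt before and 14 nt after, and at 79.2% in CPSF1, with 23 nt before and 6 nt after. These positions are of the 339 U2AF1 and 77 CPSF1 clusters with the motif, and the junction itself was not mapped. In FUBP3 and KHSRP clusters of that class with the motif, the AG ended at 69.4% and 77.5% of the length.

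Among 875 hexamers present in at least 1% of clusters of either library, those most in excess in U2AF1 were mostly runs of T and C. TTTTTT was followed by TTTTTC, in 11.5% of U2AF1 clusters and 3.40% of CPSF1 clusters, and CTTTTT, in 9.45% and 3.02%. CAGATG, singled out after its values were seen because it is no T-rich word, was in 5.56% of U2AF1 clusters (445 clusters with 420 different sequences) and 0.58% of CPSF1 clusters (124 clusters). It was in 14.4% of the U2AF1 3′ splice site class and 1.42% of the CPSF1 one. The most-read U2AF1 intron clusters that held it, at most 30 nt long and 1 for each gene, are printed to show the letters around it. They lay in SERBP1 at chr1:67414844-67414871 (minus strand, 22 reads), LAMC1 at chr1:183117316-183117345 (plus strand, 14 reads), PABPC4 at chr1:39569073-39569102 (minus strand, 13 reads) and DAP3 at chr1:155709873-155709898 (plus strand, 11 reads). CAGATG is in capitals.
SERBP1: cattttcCAGATGagaaaattctggtat
LAMC1: gCAGATGaggatgggtggcgtgcggaacag
PABPC4: cactttaCAGATGaggaagtttggatttgt
DAP3: ccagattcttgttttCAGATGgattc

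CPSF1 clusters with a poly(A) signal lay in introns about as often as all CPSF1 clusters, and in 3′ UTRs more often. Of the 4186, 2841 were in introns (67.9%, against 69.2% of all) and 745 in 3′ UTRs (17.8%, against 10.0% of all), in 2700 genes, and they held 19.2% of all CPSF1 reads. As a share of its class, the signal was in 19.2% of intron clusters, 34.8% of 3′ UTR clusters, 18.6% of noncoding transcript clusters and 16.8% of unannotated clusters in CPSF1, against 0.89%, 4.50%, 1.99% and 1.17% in U2AF1. In FUBP3 it was in 3.29% of intron clusters and 6.59% of 3′ UTR clusters, and in KHSRP in 4.54% and 6.65%. The share in CPSF1 grew with read number up to 28.9% at 20 to 50 reads and was 10.1% above that.

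The most-read intronic examples in CPSF1 are shown with the signal in capitals. ZNF146, a zinc finger gene, had 35 reads at chr19:36232338-36232366 (plus strand). RFC3, a clamp-loader subunit, had 30 reads at chr13:33834751-33834778 (plus strand). HSD17B12, a fatty acid elongation enzyme, had 28 reads at chr11:43841211-43841240 (plus strand). PFKFB3, a regulator of glycolysis, had 26 reads at chr10:6166490-6166519 (plus strand).
ZNF146: tttcATTAAAatgtttgttacttctgcct
RFC3: tgtcATTAAAgtttgttaaattccatgg
HSD17B12: tgtttAATAAAatcgtgttgtttggtttct
PFKFB3: gaagtAATAAAgtgtttgtgtattgattga

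The signal sat near the 5′ edge of CPSF1 clusters, as it does in these examples. Over the 3581 clusters with a single match it began a median of 7 nt into the cluster (quartiles 4 and 13), with 15 nt after it, and it began within the first 10 nt in 63.7%. The deposited mode position of a cluster, whose exact definition is not given in the sources used here, lay downstream of the signal in 74.0% of these clusters. Intron and 3′ UTR clusters both had a median of 7 nt before the signal, and the mode was downstream in 73.2% and 77.1%. In FUBP3 clusters with the signal, it began 16 nt into the cluster and the mode was downstream in 34.0%. In KHSRP the values were 14 nt and 36.5%.

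Annotated gene ends told the same difference in position. Within 100 nt of a RefSeq gene's 3′ end lay 0.54% of U2AF1 clusters (0.40 to 0.72, 43 clusters) and 2.53% of CPSF1 clusters (2.33 to 2.75, 542 clusters). FUBP3 had 1.37% and KHSRP 0.76% there. By reads the shares within 100 nt were 0.31% in U2AF1, 3.16% in CPSF1, 3.15% in FUBP3 and 1.02% in KHSRP, and within 500 nt FUBP3 had 4.85% of its clusters against 4.69% in CPSF1. Within 50 nt the shares were 0.20% in U2AF1 and 2.16% in CPSF1. The poly(A) signal was in 14.0% of the U2AF1 clusters within 100 nt and 55.2% of the CPSF1 ones, against 1.28% and 18.6% of the clusters elsewhere. The fullest 20-nt bin in CPSF1 was the last 20 nt before the gene end, with 193 clusters, of which 147 held the signal. In U2AF1 the fullest bin, 140 to 120 nt before the end, had 16 clusters and 0 with the signal. These gene ends are those of the longest RefSeq span, so ends of shorter transcripts are not counted.

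**Figure D3:**
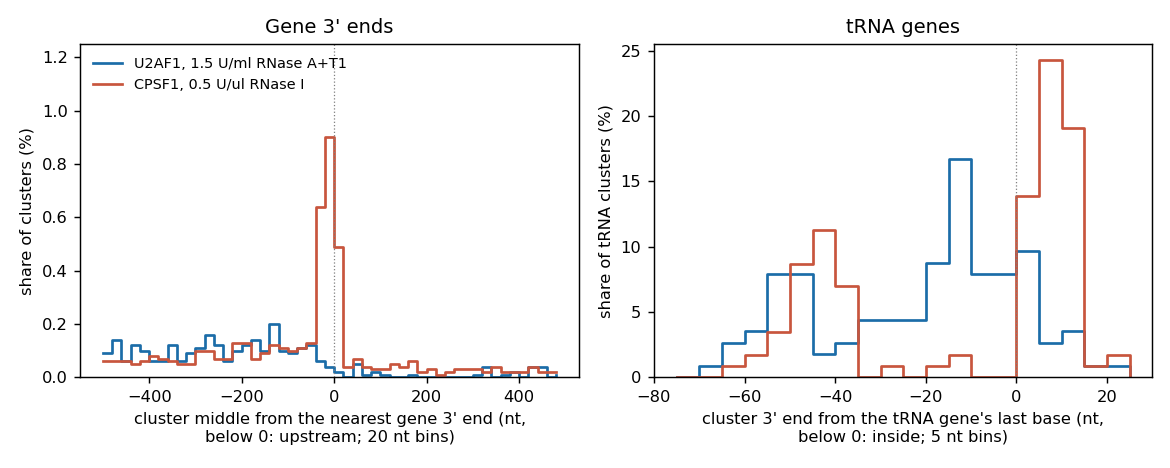
Left, clusters per 20-nt bin around annotated gene 3′ ends, as a share of the library's clusters (percent), against distance from the end (nt, negative upstream); right, share of the library's tRNA clusters (percent) per 5-nt bin against the distance of the cluster's 3′ edge from the tRNA gene's 3′ end (nt). CPSF1 peaks in the last 20 nt of genes with 193 clusters, and 70 of 115 CPSF1 tRNA clusters run past the tRNA end against 20 of 114 in U2AF1.

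Intron clusters of both libraries were spread over whole genes. Their median place, from 0% at the gene's start to 100% at its end, was 49.1% in U2AF1 (1565 clusters in genes of at least 10000 nt) and 45.7% in CPSF1 (11928 clusters). The final 10% of the gene held 7.48% of them in U2AF1 and 6.39% in CPSF1. Intronic CPSF1 clusters were therefore not gathered near gene ends.

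Clusters named 3134 genes in U2AF1 and 7484 genes in CPSF1, and 2041 were named in both, 65.1% of the U2AF1 genes and 27.3% of the CPSF1 genes. How far the same genes carried the same class of cluster differed by class. At 3′ splice sites 708 genes in U2AF1 and 212 in CPSF1 had 32 in common, and in 3′ UTRs 169 and 1776 genes had 58 in common. In introns 1506 and 5845 genes had 1013 in common, 67.3% of the U2AF1 genes and 17.3% of the CPSF1 genes. Of the 708 genes with a U2AF1 cluster at a 3′ splice site, 252 (35.6%) also had a CPSF1 cluster with a poly(A) signal, which is 9.33% of the 2700 genes with such a cluster. A gene with more reads is more likely to have clusters in both, so none of these overlaps is set against an expectation.

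Single positions were shared far less often than genes. Of the U2AF1 clusters, 122 (1.52%, 1.28 to 1.82) overlapped a CPSF1 cluster on the same strand by at least 1 nt, and 123 CPSF1 clusters (0.58%) overlapped a U2AF1 cluster. They held 7.97% of U2AF1 reads and 2.87% of CPSF1 reads. The median overlap was 19 nt. By class, 57 of the 122 U2AF1 clusters were unannotated, 21 lay in introns and 7 at 3′ splice sites, and 25 lay on tRNA genes. The overlapping pair with the most reads was on RNU5D-1, a U5 snRNA gene.

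Gene by gene, reads in clusters were compared for the 236 genes with at least 20 reads in each library, as a log2 ratio of shares of reads with 0.5 reads added. At a 2-fold limit, 76 genes were higher in U2AF1, which is 32.2% of those compared, and 14 were higher in CPSF1, which is 5.93%. The median log2 ratio was 0.61. Scaled so that this median is 0, 33 genes were higher in U2AF1 and 32 in CPSF1, so the balance of the split depends on the scaling. The balance also depends on the read limit, which was the same for 95341 reads in U2AF1 and 180426 reads in CPSF1. A gene with 20 reads in each library thus had a ratio above 0. Genes with many CPSF1 reads but under 20 U2AF1 reads were not compared. At limits of 10 and 50 reads the counts were 197 and 103, and 14 and 1. With U2AF1 at 15 U/ml the counts were 30 and 0, and with the deposited U2AF1 totals 147 and 48. The number of genes compared changed with these U2AF1 values and is not given. The 0 covers only genes with at least 20 reads in each library. SLIT2 and EIF4G3, for example, had log2 ratios of -3.03 and -3.59 with U2AF1 at 15 U/ml but are not in that count. Reads per gene had a Spearman correlation of 0.17 between the libraries over these genes, which share the annotation and the limit of 20 reads.

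**Figure D4:**
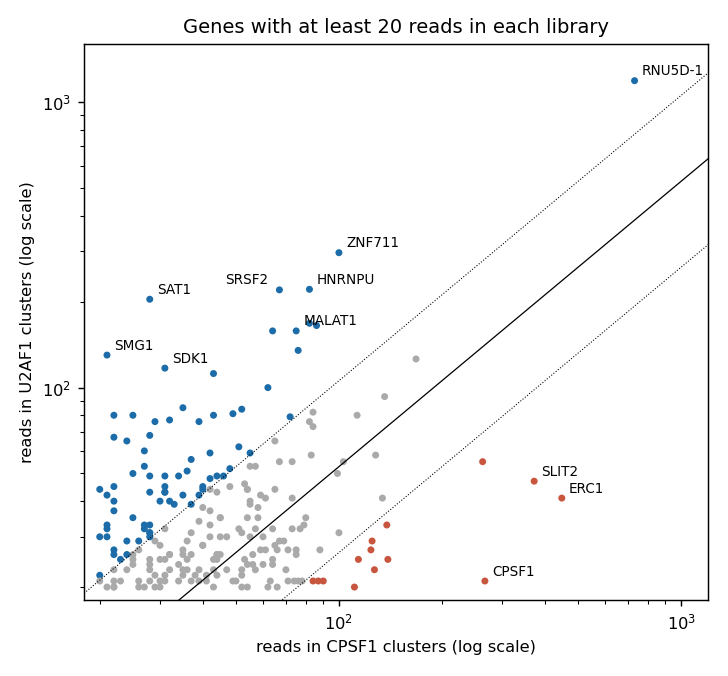
Reads in clusters per gene in CPSF1 (horizontal axis) and U2AF1 (vertical axis), both log scales, for the 236 genes with at least 20 reads in each library; the solid line marks equal shares of reads, the dotted lines 2-fold, and colour the genes past them. Of these, 76 lie at least 2-fold toward U2AF1, SAT1 the farthest, and 14 toward CPSF1, the CPSF1 gene the farthest.

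The 10 genes farthest toward U2AF1 ranged in log2 ratio between 2.34 and 3.76. SAT1, a polyamine-acetylating enzyme, had 204 reads in U2AF1 and 28 reads in CPSF1 (log2 3.76). SMG1, a kinase of nonsense-mediated decay, had 130 and 21 reads (3.52). OGT, the enzyme that adds O-GlcNAc, had 80 and 22 reads (2.76). SRSF2, an SR splicing factor, had 220 and 67 reads (2.63), of which 197 and 60 were in its 3′ UTR, but its ratio was -0.37 with U2AF1 at 15 U/ml. HNRNPA1 and HNRNPU, 2 abundant hnRNP proteins, had 67 and 22 reads (2.51) and 221 and 82 reads (2.35). ZNF711, a zinc finger gene, had 297 and 100 reads (2.49) and HSP90B1, an endoplasmic reticulum chaperone, 65 and 24 reads (2.34), and with U2AF1 at 15 U/ml these ratios were 0.73 and 0.53, under the limit. SDK1, a cell adhesion gene, had 117 and 31 reads (2.82), but 111 of its U2AF1 reads were 1 intron cluster that shares 21 nt with a cluster named RNU2-13P, a U2 snRNA copy.

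The 10 genes farthest toward CPSF1 ranged between -2.72 and -1.17. The CPSF1 gene itself had 21 reads in U2AF1 and 267 reads in CPSF1 (-2.72), and all 267 were in 11 clusters on coding sequence, while U2AF1 had 16 of its 21 reads in introns. Those cells carried a tagged CPSF1 transgene, and reads of it and of the chromosomal gene cannot be told apart. The U2AF1 gene had 35 reads in U2AF1, 24 of them in its 3′ UTR and 0 in coding sequence, and no cluster in CPSF1. Its near-identical copy U2AF1L5 can share its reads. ERC1, an active-zone scaffold gene, had 41 and 448 reads (-2.51), SLIT2, an axon guidance ligand, 47 and 372 reads (-2.05), PARD3, a cell polarity gene, 25 and 139 reads (-1.53), and PTBP2, a splicing repressor, 20 and 111 reads (-1.52). ARID1B, a chromatin remodelling subunit, had 23 and 127 reads (-1.52), EIF4G3, a translation initiation factor, 55 and 263 reads (-1.33), SPEN, a transcriptional repressor, 27 and 124 reads (-1.26), PRKCA, a protein kinase C, 25 and 114 reads (-1.25), and FAF1, a ubiquitin-binding protein, 29 and 125 reads (-1.17). With the deposited U2AF1 totals PARD3 and SPEN were each at -0.73 and FAF1 at -0.71, within the limit.

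Genes on the CPSF1 side were longer. Their median RefSeq length was 368657 nt (11 genes with a length) against 29627 nt for the genes higher in U2AF1 (61 genes) and 55082 nt for all compared (198 genes). In the 14 genes higher in CPSF1, introns held 68.9% of U2AF1 reads and 80.0% of CPSF1 reads. In the 76 genes higher in U2AF1, introns held 23.0% of U2AF1 reads and 46.0% of CPSF1 reads, and coding sequence held 18.2% and 4.76%. The part of gene length in these ratios was not tested.

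Of the SR and hnRNP genes compared, more were past the limit toward U2AF1 than toward CPSF1, as were the genes in all, of which 32.2% were higher in U2AF1 and 5.93% in CPSF1. Of 19 SR and SR-related proteins, 16 had a cluster in U2AF1 and 18 in CPSF1, and of the 5 compared, 4 were at least 2-fold higher in U2AF1 and 0 in CPSF1, with a median log2 ratio of 1.77 against 0.61 over all genes compared. Beside SRSF2 they were SRSF11 (77 and 32 reads, 2.17), SRSF10 (40 and 22 reads, 1.77) and SRRM2 (81 and 49 reads, 1.64). SRSF3 had 134 reads in U2AF1, 106 of them in its 3′ UTR, and 7 in CPSF1. Of 32 hnRNP genes, 10 were compared, 5 were higher in U2AF1 and 1, PTBP2, in CPSF1, with a median of 1.47. HNRNPA3 had 76 and 29 reads (2.29), HNRNPA2B1 158 and 64 reads (2.22), and HNRNPH1 168 and 82 reads (1.95). HNRNPL had 119 reads in U2AF1, 41 of them at 3′ splice sites, and no cluster in CPSF1, whereas PTBP1 had 6 reads in U2AF1 and 81 in CPSF1.

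Factors of the 3′ splice site and of 3′ end formation gave few genes to read against the 32.2% and 5.93% of all genes compared. Of 22 genes for 3′ splice site and U2 proteins, 14 had a cluster in U2AF1 and 12 in CPSF1, and 4 were compared, with 1 higher in U2AF1, SF3B3 (52 and 48 reads, 1.03, just past the limit), 0 in CPSF1 and a median of 0.77. Of 23 genes for 3′ end processing, 12 had a cluster in U2AF1 and 16 in CPSF1. Of the 4 compared, 2 were higher in CPSF1, the CPSF1 gene and CPSF6 (21 and 87 reads, -1.10), 0 in U2AF1, and the median was -1.01. XRN2, the nuclease that degrades RNA downstream of the cleavage site, had no cluster in U2AF1 and 67 reads in CPSF1, and PABPN1, the nuclear poly(A)-binding protein, had 39 reads in U2AF1 and no cluster in CPSF1. Of 88 cytoplasmic ribosomal protein genes, 10 were compared, 5 were higher in U2AF1 and 0 in CPSF1, with a median of 0.97. Of a list of 13 long noncoding RNAs, 2 were compared, with 1 higher in U2AF1 and 0 in CPSF1. MALAT1 had 158 and 75 reads (1.99) and NEAT1 93 and 136 reads (0.37, below the median of all genes compared). By name, mitochondrially encoded RNAs had 19 reads in U2AF1, from 1 of 12 genes, and 1601 reads in CPSF1, from 12 of 12, while all clusters on the mitochondrial chromosome held 705 reads in U2AF1 (28 clusters) and 2712 reads in CPSF1 (72 clusters).

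Histone messenger RNAs, whose 3′ end is cut after a stem-loop and is not polyadenylated, had clusters mainly in CPSF1. Of 68 replication-dependent histone genes, 2 had a cluster in U2AF1, with 27 reads, and 16 in CPSF1, with 839 reads. These were 0.03% of U2AF1 reads and 0.47% of CPSF1 reads. Over all genes, clusters named 3134 in U2AF1 and 7484 in CPSF1. In CPSF1, 702 of the histone reads were in 3′ UTR clusters, and 5 of its 18 histone clusters lay within 50 nt of the gene's 3′ end and held 584 reads. Among these the fullest were in H4C8 (241 reads), H4C2 (131 reads), H2AC11 (116 reads) and H2BC13 (67 reads). Histone cleavage is known to use the CPSF nuclease and its partners, but whether that bears on these clusters was not tested. No histone values are given for FUBP3 and KHSRP, so the pattern is not shown to be particular to CPSF1. Near-identical histone copies can share reads, so the split between genes is uncertain.

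Spliceosomal snRNAs, the RNA parts of the splicing machinery, held more of the U2AF1 reads than of the CPSF1 reads by their deposited names. Clusters named as snRNAs held 2.18% of U2AF1 reads (2.09 to 2.28, 2081 reads in 42 clusters) and 0.95% of CPSF1 reads (0.91 to 1.00, 1722 reads in 19 clusters). Of these clusters 36 in U2AF1 and 9 in CPSF1 bear pseudogene names. snRNA copies are near-identical, so which copy a read is given to is uncertain, and the values are given by family first. With the deposited U2AF1 totals in place of recovered reads the difference between the libraries was 0.51 points, against 1.23 points. By the same kind of names snRNAs held 2.097% of reads in U2AF1 at 15 U/ml, 0.016% in FUBP3 and 0.077% in KHSRP. The CPSF1 share was thus below those of U2AF1 and above those of FUBP3 and KHSRP.

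By deposited name U5, which aligns the exons, led in both libraries, with 1247 reads in U2AF1 and 731 reads in CPSF1. On RNU5D-1 the U2AF1 cluster (1190 reads) lay at chr1:44731061-44731105 and the CPSF1 cluster (731 reads) at chr1:44731054-44731115, both on the minus strand, and they ran 8 nt and 15 nt past the annotated 3′ end. U1, which pairs with the 5′ splice site, had 471 reads in U2AF1 and 107 in CPSF1. U6 had 90 and 26 reads, and U6atac, its counterpart in the minor spliceosome, 183 and 15. U4, the partner of U6, had 60 and 342 reads, which in CPSF1 were RNU4-2 (213 reads) and RNU4-1 (129 reads). U12 and U11, which recognise minor introns, had 365 and 119 reads in CPSF1 and no cluster in U2AF1.

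After RNU1-148P (202 reads in U2AF1), whose sequence is not printed, the 4 most-read snRNA clusters of at most 30 nt, 1 for each name, were all from U2AF1. The stretch that the 3 U1-named ones share is in capitals, without the t before it, which they also share. RNU1-130P had 81 reads at chr1:96226026-96226049 (plus strand), U1 75 reads at chr1:144551791-144551815 (minus strand), RNU1-132P 40 reads at chr1:245133940-245133963 (minus strand) and RNU6ATAC31P 33 reads at chr4:88206484-88206509 (minus strand).
RNU1-130P: ttTGTGGTAGTGGGagactgcgtt
U1: tTGTGGTAGTGGGgggctgtgtccg
RNU1-132P: tTGTGGTAGTGGGggactttgtcc
RNU6ATAC31P: gatggaagaggccctcgggcctgaca

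U2, the snRNA that pairs with the branch point beside the U2AF site, had few reads by name, 30 in U2AF1 and 9 in CPSF1. Clusters that share at least 13 nt with an RNU2-named cluster held 4119 reads in U2AF1 (4.320% of reads, 36 clusters) and 26 reads in CPSF1 (0.014%, 2 clusters). Of the 36 in U2AF1, 24 were unannotated and 3 were labelled snRNA. In U2AF1 at 15 U/ml they held 5.922% of reads, and in FUBP3 and KHSRP 0.004% each. This grouping was made after the data were seen and rests on the length asked for. The fullest cluster shares 14 nt and the next 13 nt, and together they held 3423 of the 4119 reads. With at least 15 nt asked for, the share was 0.66% in U2AF1 (30 clusters) and 0.01% in CPSF1 (1 cluster). With the 13-nt clusters added to the named ones, snRNAs held 6.472% of U2AF1 reads and 0.964% of CPSF1 reads.

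The 4 most-read U2-like clusters are printed, with a stretch that the first pair shares and a stretch that the last pair shares in capitals. The capitals of the last pair mark only part of what it shares, and those letters also occur in the first pair. The first, which the deposited file names SNORA75, lay at chr12:12603882-12603906 (minus strand) and with 2752 reads was the fullest cluster of the library, 2.89% of all its reads. The next, unannotated, had 671 reads at chr4:168327083-168327105 (plus strand). A second unannotated one had 111 reads at chr14:65659567-65659591 (minus strand), and the SDK1 intron cluster had 111 reads at chr7:3729838-3729862 (plus strand).
SNORA75-named: gCTTCTCGGCCTTTGGCTAAGATCa
unannotated, chromosome 4: CTTCTCGGCCTTTGGCTAAGATC
unannotated, chromosome 14: gttctcggccttTTGGCTAAGATCa
SDK1: ggttctcggccttTTGGCTAAGATC

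**Figure D5:**
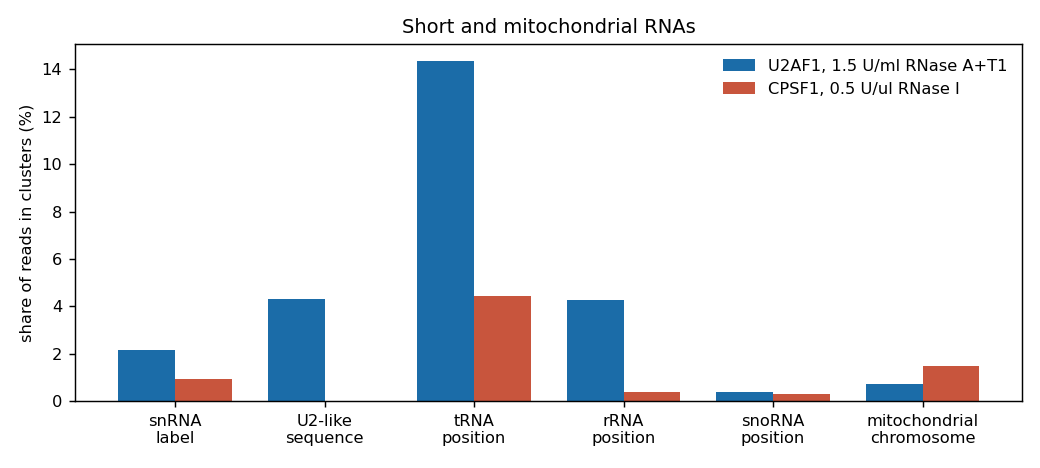
Share of reads in clusters (percent) held by clusters named as snRNAs, by U2-like sequence, by tRNA, ribosomal RNA and small nucleolar RNA genes and by the mitochondrial chromosome, for U2AF1 and CPSF1. U2-like sequence, at 13 shared nt, holds 4.320% of U2AF1 reads and 0.014% of CPSF1 reads, and tRNA genes 14.34% and 4.46%.

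Other short RNAs also held more of the U2AF1 reads. Clusters on tRNA genes held 14.34% of U2AF1 reads (114 clusters on 102 genes) and 4.46% of CPSF1 reads (115 clusters on 106 genes), with 28 genes in both. They held 14.22% of reads in U2AF1 at 15 U/ml, 0.06% in FUBP3 and 0.23% in KHSRP. The U2AF1 file lists near-equal reads at each copy of a repeated gene, such as 868, 853, 878 and 857 reads at 4 copies of the arginine tRNA TRR-ACG2, and the same 1344 reads at 3 ribosomal DNA places. With the fullest cluster alone for each tRNA family, the shares were 6.38% in U2AF1 and 3.90% in CPSF1. Ribosomal RNA held 4.28% and 0.39% and small nucleolar RNA 0.40% and 0.32%. Clusters were matched to these short RNA genes by position without regard to strand, so clusters on the opposite strand may be counted. Most U2AF1 clusters on tRNAs ended inside the gene, and most CPSF1 clusters ran past its 3′ end. In U2AF1, 20 of 114 clusters (17.5%, 11.7 to 25.6) ran past the end, with 5.74% of tRNA reads. In CPSF1, 70 of 115 (60.9%, 51.7 to 69.3) did so, with 80.1% of tRNA reads and a median of 8 nt beyond. In the RNase I libraries of FUBP3 and KHSRP, 48.3% (36.2 to 60.7) and 52.1% (40.7 to 63.3) of tRNA clusters also ran past the end. In U2AF1 at 15 U/ml 8.97% did. Between U2AF1 and the RNase I libraries, protein, RNase, labelling and file layout differed together and cannot be told apart.

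Single tRNA genes showed the same difference. The arginine tRNA TRR-ACG2-3 had 878 reads in its fullest U2AF1 cluster, which ended 12 nt before the 3′ end, and 51 reads in CPSF1. The glycine tRNA TRG-TCC1-1 had no U2AF1 cluster and 821 reads in CPSF1, ending 3 nt past the end. TRP-AGG2-4, a proline tRNA, had 160 reads in U2AF1 and 585 in CPSF1, and TRS-GCT6-1, a serine tRNA, 143 and 409. The name CTC1 had 5 reads in U2AF1 and 385 in CPSF1, and its CPSF1 cluster lay on the serine tRNA TRS-AGA2-6.

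Several of the names with the most reads belong to such RNAs. MIR6724-1 (1142 reads) and CH507-513H4.1 (493 reads), both in the ribosomal DNA region, had clusters in U2AF1 and none in CPSF1, as did RP11-353N4.5 (221 reads), IMPG1 (214 reads in 1 cluster) and RNU1-148P (202 reads). On the other side RNU12, RNA5SP215, a 5S rRNA pseudogene (319 reads), CTC-559E9.12 (297 reads), RP11-25K21.6 (277 reads) and H4C8 (272 reads) had clusters in CPSF1 and none of that name in U2AF1. A name can differ while the place does not: an unannotated U2AF1 cluster of 166 reads overlapped the CTC-559E9.12 cluster. MT-CO1, a mitochondrial respiratory chain subunit, had 19 reads in U2AF1 and 353 in CPSF1. A further gene among the 10 with the most reads in each library is not reported here.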

How the data were processed

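Per the submitters' processing notes, bcl2fastq 2.20.0 and cutadapt 1.15 were used with the hg38 build. Which aligner, cluster caller and annotation were used is not given in the sources used here. Each row the authors deposited is 1 cluster with its sequence, label and gene name. The CPSF1 values are read counts per cluster, per the file headers. The U2AF1 files give total reads as counts, crosslinked reads as estimated counts that need not be whole, and the crosslinked fraction, per the file headers. Crosslinked reads divided by the fraction gave whole reads within 1% for 99.8% of clusters, 95341 in all against 147453 deposited, and these recovered reads were used.

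Labels of both layouts were mapped to the same 8 region classes. Introns of names that stand only for short RNAs were counted as noncoding transcripts. So were U2AF1 clusters labelled only as exon, whatever the gene. Older gene symbols were updated to RefSeq symbols, joined names were kept only where 1 of them was a protein-coding or long noncoding gene, and tRNA, gene end and length values come from RefSeq positions. Where 123 overlapping cluster pairs were compared, 100.0% of 2225 shared positions held the same base, so both files use 1 build.

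With 1 library per protein no test was made. Genes were compared at 20 reads in each library, a pseudocount of 0.5 reads and a limit of 2-fold. The genes named are the 10 largest and 10 smallest ratios, the 10 with the most reads per library, the 5 fullest without a cluster in the other library, and members of the lists; 1 of the 10 largest ratios is not reported here. Members and lists were chosen with earlier results of these data known. The counting steps were tested on simulated data. Analyses used Python 3.11.15, pandas 2.3.3, numpy 2.4.6 and scipy 1.17.1.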

Additional observations from a re-analysis of the deposited data

How the results depend on the processing

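Of 73 alternative values for the main comparisons, 22 stayed within the counting interval (for counts, within 1.5 times), 51 moved and 0 changed direction; of 55 for single genes and short RNA classes, 23 stayed, 31 moved and 1 changed direction, SRSF2, with a log2 ratio of -0.37 against U2AF1 at 15 U/ml. The causes were not tested. All differences are U2AF1 minus CPSF1, in percentage points. The intron difference was -44.6 by reads, -46.0 in clusters of at least 10 reads, -31.2 in the 1000 most-read clusters, -53.0 with U2AF1 at 15 U/ml, -34.4 among messenger RNA classes and -35.1 with the deposited tags as they stand. In the same order the 3′ splice site difference was 6.26, 11.8, 11.1, 5.39, 18.2 and 4.81, and 11.0 with 1 cluster per sequence. The 3′ UTR difference was -9.04 by reads, -12.0 at 10 reads and -15.6 in the top 1000. The snRNA difference was 0.44 by clusters, 1.89 outside rRNA, tRNA and mitochondrial clusters, 0.51 with deposited reads, 1.75 with intron labels included, 1.94 by RefSeq position and 5.51 with U2-like sequence. Shared genes numbered 236 at 20 reads in each, 31 at 50 reads, 196 from clusters of at least 10 reads and 752 with U2AF1 at 15 U/ml. Genes higher in U2AF1 and in CPSF1 numbered 33 and 32 with median scaling, 197 and 103 at 10 reads, 14 and 1 at 50 reads, 18 and 3 at 4-fold, 30 and 0 with U2AF1 at 15 U/ml, and 147 and 48 with deposited reads. The number of genes compared also changed with the read limit and the U2AF1 values used. The splice-like motif difference was 9.23 in the central 20 nt, 12.2 in introns, 10.1 in 3′ UTRs, 13.9 at 10 reads and 1.45 with U2AF1 at 15 U/ml. The poly(A) signal difference was -12.9 in the central 20 nt, -30.3 in 3′ UTRs and -21.7 at 10 reads. Overlapping U2AF1 clusters numbered 73 at 50% of each cluster, 40 at 10 reads, 250 with a gap of up to 50 nt and 67 with U2AF1 at 15 U/ml. The gene end difference was -4.23 at 10 reads. The tRNA difference of 9.88 was 11.2 with 1 cluster per sequence and 2.49 with 1 per tRNA family, the rRNA difference of 3.89 was 4.14, and the U2-like difference of 4.31 was 0.65 with 15 shared nt. The alternatives on deposited tags and reads, strand, repeated sequences, RefSeq spans and U2-like or RefSeq snRNAs and RNA copies were chosen after seeing the data. Alternatives on distinct read sequences were not run, because the U2AF1 values used here have no such column. No paired analysis was possible because each protein had 1 library, and depth limits the values of single genes, since most clusters held under 10 reads.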
